A study of Mus musculus with 2 samples.

Results

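Nuclear transport receptors and nucleoporins were followed here as 1 set of 51 genes among the 28000 features measured. They were taken by symbol: the exportins (Xpo genes and Cse1l), the importins of the β family (Ipo genes, Tnpo genes and Kpnb1), the importin α adaptors (Kpna genes), the Ran cycle (Ran, Rangap1, Ranbp1, Ranbp2, Rcc1 and Nutf2) and every gene named Nup with a number. They were measured by single-cell RNA-seq in 2 libraries of mouse prostate tumours, each of its own genotype, and the question put to the set was where Xpo1 stands within its family by cell class and by cycling state. DoubleTg mice (hHGFtg-hMETtg-PBCre) carried a human HGF transgene expressed throughout the body and a human MET transgene behind a stop cassette, which a Cre recombinase driven by the probasin promoter removes in prostate epithelium. TripleTg mice (hHGFtg-hMETtg-Ctnnb1-PBCre) carried the same alleles and a Ctnnb1 allele with a floxed exon 3, whose removal by the same Cre leaves a stabilised β-catenin. Both genotypes therefore share the HGF and MET transgenes and the Cre, the stroma and blood cells carry no recombined allele by design, and the age and number of the mice behind each library are not given in the sources used here. The mice were of a mixed background of C57BL/6 and C3H SCID. With a single library on each side no difference can be tested and none carries a p-value. Every interval is a 95% interval and covers counting error alone.

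Proteins above a small size cross the nuclear envelope through nuclear pore complexes, which are built from nucleoporins: an outer ring and an inner ring form the scaffold, phenylalanine-glycine nucleoporins line the channel, and filaments and a basket extend into the cytoplasm and the nucleus. Importins bind cargo in the cytoplasm and release it when they meet Ran bound to GTP in the nucleus, while exportins bind cargo together with Ran-GTP in the nucleus and release it when the GTP is hydrolysed outside. The gradient is kept by Rcc1, the exchange factor on chromatin, and by Rangap1, which activates GTP hydrolysis in the cytoplasm. Xpo1, also called CRM1, exports proteins with a leucine-rich signal and takes part in the export of ribosomal subunits.

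The DoubleTg library kept 10598 of 12072 cells (87.8%) with a median of 16761 unique molecular identifiers (UMIs, each 1 captured RNA molecule), and the TripleTg library kept all 9492 cells with a median of 20097. The libraries shared 29 cell barcodes. Epithelial-like cells, in which 7 of 7 epithelial markers were each found in at least 0.5 of the cells of every cluster, numbered 7065 in DoubleTg and 6630 in TripleTg. Basal-like cells made up 26.7% of them in DoubleTg and 12.0% in TripleTg, and seminal vesicle-like cells 1.78% and 8.82%. As a check of the labels, Axin2, a target of β-catenin, was at 2.44 UMIs per 1000000 UMIs of the cell group (CPM) in DoubleTg and 73.0 CPM in TripleTg epithelial-like cells, whereas hMETtg was at 429 and 40.1 CPM. The 3′ tags cannot show whether exon 3 of Ctnnb1 was removed.

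Xpo1 stood in the lower part of its family. Among the 7 exportins it took rank 5 in epithelial-like cells of both libraries, at 9.09 CPM (8.71 to 9.49, 2091 UMIs) in DoubleTg and 12.3 CPM (11.9 to 12.8, 2520 UMIs) in TripleTg. Since 1 UMI stands for 1 molecule caught at its 3′ end, CPM compares captured molecules between genes whatever the length of the transcript. How well each gene is captured was not measured, so the ranks given here are ranks of captured molecules. Xpo6, which exports actin bound to profilin, was the most abundant exportin in both libraries, at 30.8 and 28.5 CPM. Below it the order differed, with Xpot, the tRNA exporter, at 20.1 and 14.8 CPM, Xpo7 at 16.1 and 16 CPM and Cse1l, which returns importin α to the cytoplasm, at 15.8 and 16.9 CPM. Xpo4 (7.73 and 7.33 CPM) and Xpo5, the exporter of precursor microRNAs (6.06 and 5.82 CPM), stood below Xpo1 in both. The places of Xpo6, Xpo1, Xpo4 and Xpo5 were the same in both libraries. Neighbours whose intervals overlapped were Xpo7 (15.6 to 16.6 CPM) and Cse1l (15.3 to 16.4 CPM) in DoubleTg, and in TripleTg Cse1l (16.4 to 17.5 CPM) and Xpo7 (15.5 to 16.6 CPM).

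Over all 24 receptors Xpo1 was at rank 18 in DoubleTg and 15 in TripleTg epithelial-like cells, and over all 51 genes at rank 31 and 26. The highest of the set in both was Ran, the GTPase itself, at 310 and 316 CPM. Ranbp1, which helps to take export complexes apart, stood at 140 and 183 CPM, and Kpna4, an importin α adaptor, at 107 and 159 CPM. Kpna7, an importin α known from oocytes and early embryos, had 0 UMIs in DoubleTg and 4 UMIs in TripleTg epithelial-like cells.

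Across cell classes Xpo1 ranged from 3.17 CPM in TripleTg seminal vesicle-like cells to 28.1 CPM in TripleTg endothelial-like cells, with a median of 11.1 CPM over the 19 class and library points that held at least 50 cells. It was the most abundant exportin at 1 of these 19 points, TripleTg endothelial-like cells, where Xpo6 followed at 26.9 CPM, a gap inside the interval of Xpo1 (22.0 to 35.4 CPM, 72 UMIs in 242 cells). After each cell was thinned to 5000 UMIs it was first at 0 of the 19 points. DoubleTg endothelial-like cells had 8.55 CPM of Xpo1 (5.15 to 13.3, 19 UMIs in 276 cells), so the intervals of the libraries did not overlap in this class. The log2 ratio of TripleTg over DoubleTg was 1.72 (0.97 to 2.53). Cycling cells, as defined below, were 0.625% of the DoubleTg and 7.5% of the TripleTg endothelial-like cells, and their part in the Xpo1 difference was not tested. Among immune cells, T and NK-like cells of DoubleTg were at 17.0 CPM of Xpo1 and macrophage-like cells at 7.43 and 12.7 CPM. The neutrophil-like point of TripleTg (16 CPM, 28 UMIs in 151 cells) was shallow, with a median of 2957 UMIs per cell, and mixed, with the epithelial gene Pbsn among its top 10 and 7 of 7 epithelial markers found in most of its cells.

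**Figure D1:**
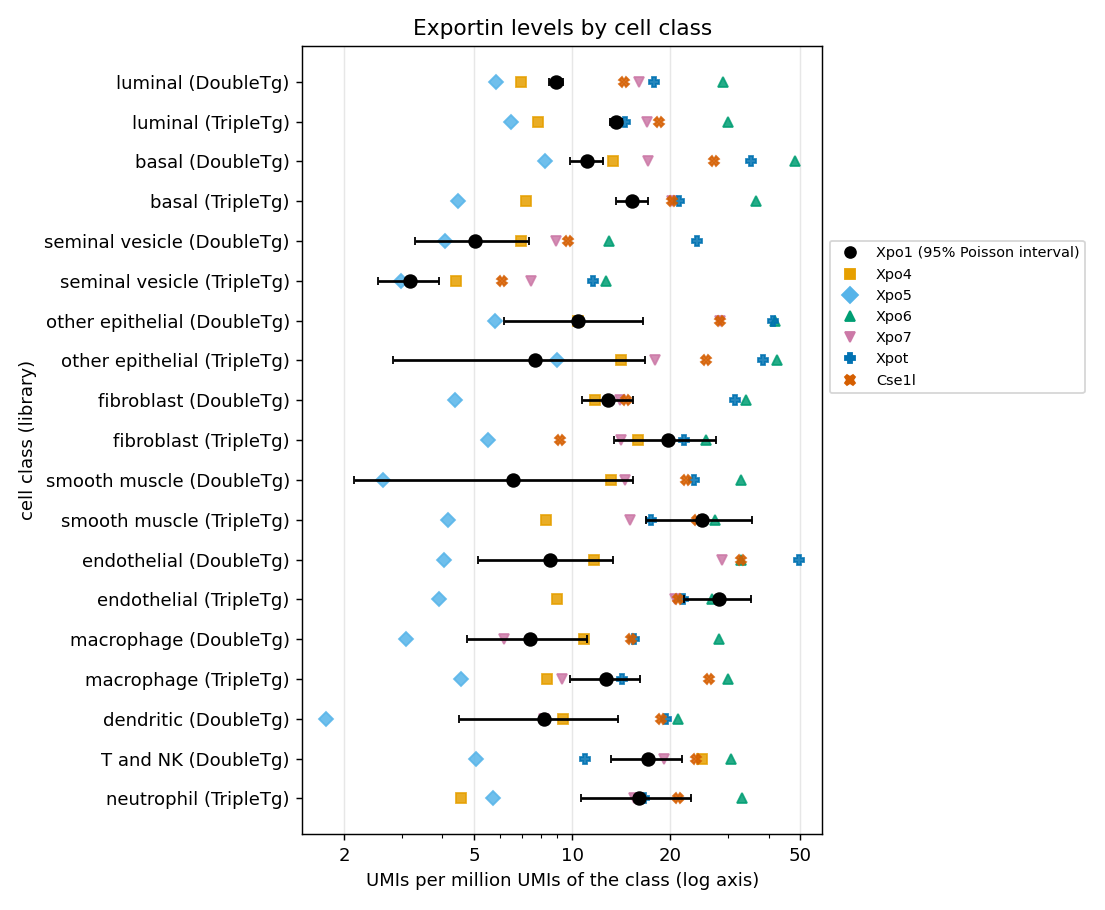
Levels of the 7 exportins (CPM within the class, log axis) at the 19 class and library points. Xpo1 is drawn in black with its exact Poisson interval of 95%. It lies at rank 5 to 7 at 10 of 10 DoubleTg and 4 of 9 TripleTg points and is first, at 28.1 CPM, in TripleTg endothelial-like cells alone, where Xpo6 at 26.9 CPM is inside its interval.

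Among the exportins Xpo1 had the highest ratio between cycling and other cells. A cell was called cycling when at least 3 of 15 S-phase and mitosis genes, none of them in the transport set, had a UMI after thinning to 5000 UMIs. There were 83 such cells among 6683 DoubleTg epithelial-like cells (1.24%, 0.99 to 1.54) and 376 among 6361 TripleTg cells (5.91%, 5.34 to 6.52). In DoubleTg, Xpo1 was at 24.1 CPM in cycling cells (84 UMIs) and at 8.86 CPM in the other cells. In TripleTg it was at 28.2 CPM (438 UMIs) and 11 CPM. The log2 ratios of 1.45 (1.11 to 1.76) and 1.36 (1.20 to 1.51) were the highest of the 7 exportins in both libraries, although the interval overlapped that of Cse1l in both and that of Xpo5 in DoubleTg. Xpo1 thereby moved from rank 5 to rank 4 among exportins in DoubleTg cycling cells and to rank 3 in TripleTg. Cycling cells were deeper than other cells, with median UMIs of 41014 against 28437.5 in DoubleTg and 38995.5 against 25747 in TripleTg, and with all cells thinned to 5000 UMIs the ratios of Xpo1 were 1.93 and 1.34.

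Xpo1 was also higher in cycling cells within luminal-like and within basal-like cells. Within luminal-like cells the log2 ratio of Xpo1 was 1.45 (1.10 to 1.79) in DoubleTg and 1.18 (1.02 to 1.34) in TripleTg. Basal-like cycling cells were few, 17 and 40, and gave 1.60 (0.52 to 2.5) and 1.42 (0.96 to 1.85) for Xpo1. Cells of the named non-epithelial classes, pooled, gave 1.75 (0.52 to 2.75, 8 UMIs in 16 cycling cells) and 1.57 (1.06 to 2.06, 43 UMIs in 44 cycling cells). Of the 16 DoubleTg cells 9 were T and NK-like, a class at 17.0 CPM of Xpo1, so the pools differ in makeup. After thinning to 5000 UMIs the DoubleTg pools were at 12.5 CPM in cycling and 10.9 CPM in other cells. The thinned TripleTg pools were at 45.5 and 14.2 CPM.

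With all UMIs of each cell, Cse1l was the other exportin whose ratio was past 1.5-fold with an interval above that fold in both libraries. Cse1l was at 32.2 CPM in cycling and 15.6 CPM in other cells of DoubleTg, and at 33.9 and 15.5 CPM in TripleTg, with log2 ratios of 1.05 (0.76 to 1.32) and 1.13 (0.99 to 1.26). Cse1l was thus at the level of Xpo6 in cycling cells, which stood at 34.8 and 32.3 CPM. Xpo5 was past 1.5-fold in both libraries as well, at 0.61 (0.06 to 1.12) and 0.86 (0.61 to 1.11), and Xpo7, a broad-specificity receptor, in DoubleTg alone (0.65 against 0.44). With TMM factors, described below, 2 of 7 exportins were past 1.5-fold higher in DoubleTg (Xpo1 and Cse1l) and 3 of 7 in TripleTg, where 8.37% and 9.47% of all features were. After thinning to 5000 UMIs Xpo1 was the 1 exportin past 1.5-fold in DoubleTg, where Cse1l gave 0.48 (-0.59 to 1.37, 10 UMIs) and Xpo5 0.47 (4 UMIs), and in TripleTg Cse1l gave 1.31 (0.94 to 1.66). In basal-like cells Cse1l was at -0.73 (-2.36 to 0.50, 5 UMIs in cycling cells) in DoubleTg and 1.21 (0.79 to 1.61) in TripleTg. Xpo4 gave 0.35 and 0.49. Xpot and Xpo6 differed least between the states, with 0.13 (-0.22 to 0.45) and 0.05 (-0.15 to 0.24) for Xpot and 0.18 (-0.09 to 0.44) and 0.20 (0.07 to 0.33) for Xpo6.

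Over the whole set, 24 of the 44 genes that passed the limit on level (a mean of at least 5 CPM over the cell groups) were past 1.5-fold higher in DoubleTg cycling cells, where 16.5% of all 8853 features were and 3.8% were past 1.5-fold lower. In TripleTg it was 23 of 46, where 13.7% of all 8451 features were and 4.9% were past 1.5-fold lower. No gene of the set was past 1.5-fold lower in either library with all UMIs. With cells thinned to 5000 UMIs 19 of 44 genes were past 1.5-fold higher in DoubleTg and 1 past 1.5-fold lower, Ipo13 (-0.84, -3.13 to 0.71, 3 UMIs in cycling cells), where 21.5% and 11.5% of all features were. Thinned TripleTg cells had 23 of 46 higher and 0 lower, where 14.2% and 7.88% of all features were. The median log2 ratio of the set was 0.62 in DoubleTg beside 0.20 over all features, and 0.58 in TripleTg beside 0.12. Of the 44 genes at level in both libraries 40 had the same sign, and 20 were past 1.5-fold higher in both. These counts were not made over all features, and they include genes of the kind described next. Some genes passed the limit only through the cycling cells and had to be higher there: Nup133, Nup37, Nup93, Nup155 and Nup205 in DoubleTg, and Nutf2, Nup107, Nup133, Nup37, Nup43, Nup85, Nup93 and Nup35 in TripleTg. Without them 19 of 39 and 15 of 38 genes were past 1.5-fold higher, with medians of 0.46 and 0.45. The shares of all features above are for the limit on the mean and were not counted anew for these restricted counts. The genes under the limit were Ipo11, Kpna7, Nup210, Nup210l and Nup62cl in both libraries, and Nutf2 and Nup107 in DoubleTg as well. Scaling by edgeR's TMM factors lowered every ratio by 0.25 in DoubleTg and 0.13 in TripleTg, which left 14 and 22 genes past 1.5-fold (8.37% and 9.47% of all features) and turned the sign of genes whose ratio lay between 0 and that shift.

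**Figure D2:**
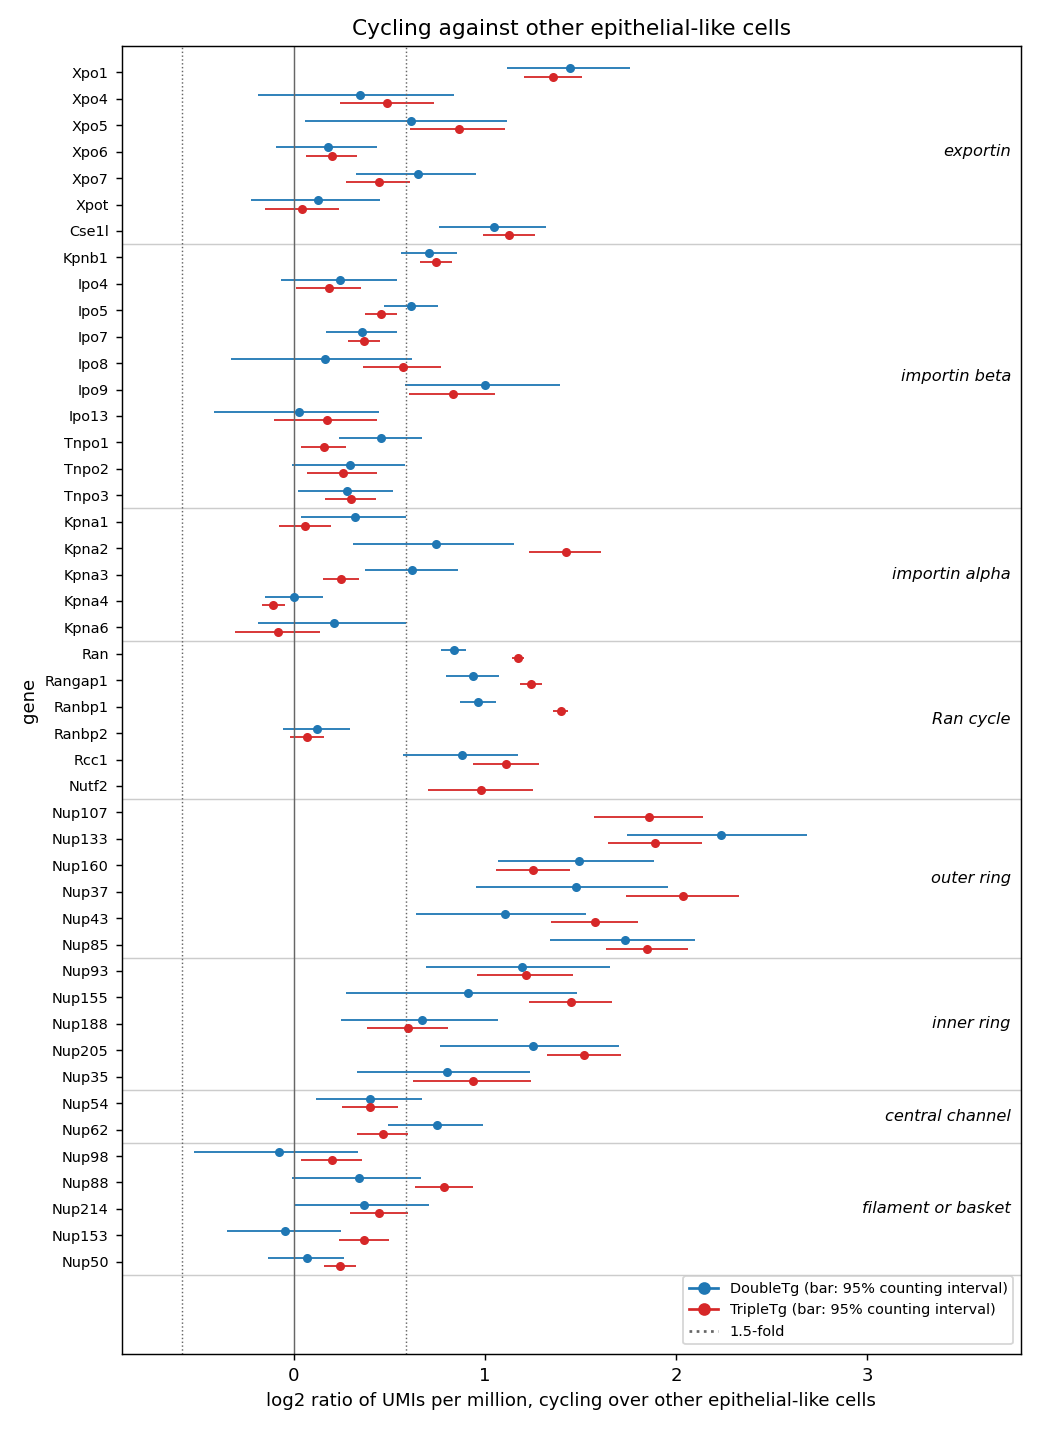
Log2 ratio of CPM in cycling over other epithelial-like cells for each gene that passed the limit on level, by role, in DoubleTg (blue) and TripleTg (red), with 95% counting intervals. Dotted lines mark 1.5-fold. The ring nucleoporins shown run from 0.60 for Nup188 in TripleTg to 2.23 for Nup133 in DoubleTg, several of them shown only because the cycling cells lifted them over the limit, while Xpot, Kpna4 and Ranbp2 lie near 0.

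In the outer ring of the pore scaffold, the Y-shaped complex that also binds kinetochores in mitosis, 6 of 6 genes were past 1.5-fold higher in both libraries when no limit on level was set, with median log2 ratios of 1.48 and 1.85. No share of all features was counted without a limit on level, so the 6 of 6 has none to be set against. Several of these genes, 5 of 6 in TripleTg, passed the limit only through the cycling cells. Those at 5 CPM or more in both states were Nup160, Nup43 and Nup85 in DoubleTg (3 of 3 past 1.5-fold) and Nup160 alone in TripleTg (1.25). Nup133 was at 12.1 CPM in cycling and 2.57 CPM in other DoubleTg cells and at 11.6 and 3.14 CPM in TripleTg, with ratios of 2.23 (1.74 to 2.69) and 1.89 (1.64 to 2.13). Nup85 was at 17.8 and 5.37 CPM in DoubleTg and at 15.2 and 4.23 CPM in TripleTg, with ratios of 1.73 (1.34 to 2.10) and 1.85 (1.63 to 2.06). Nup37 was at 10.3 and 3.71 CPM and at 8.42 and 2.05 CPM, with ratios of 1.48 (0.95 to 1.96) and 2.04 (1.74 to 2.33). In both libraries these outer ring genes were low outside cycling cells, from 2.05 CPM for Nup37 in TripleTg to 7.24 CPM for Nup160 in TripleTg, and the counts behind the DoubleTg cycling values were small, 20 to 62 UMIs.

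The inner ring, which anchors the pore to the membrane, had 5 of 5 genes past 1.5-fold in both libraries with no limit on level, and medians of 0.91 and 1.21. For this count too no share of all features was made. At 5 CPM or more in both states were Nup188 and Nup35 in DoubleTg (2 of 2) and Nup155, Nup188 and Nup205 in TripleTg (3 of 3). Nup205 was at 11.8 CPM in cycling and 4.94 CPM in other cells of DoubleTg and at 17.3 and 6.03 CPM in TripleTg, with ratios of 1.25 (0.77 to 1.70) and 1.52 (1.32 to 1.71). Nup188 was the lowest of the inner ring, with 0.67 and 0.60. With TMM factors 3 of 5 and 4 of 5 inner ring genes that passed the mean limit were past 1.5-fold higher, where 8.37% and 9.47% of all features were. With thinned cells it was 3 of 4 and 4 of 5, where 21.5% and 14.2% of all features were, and Nup188 gave 0.58 and 0.18.

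The channel, filament and basket genes had lower medians than the rings. Of the channel nucleoporins, Nup62 gave 0.75 and 0.47 and Nup54 0.40 and 0.40. Thinned DoubleTg cells gave -0.09 (-1.04 to 0.72) for Nup62, from 12 UMIs in cycling cells, and 0.66 (-0.08 to 1.31) for Nup54, from 19 UMIs. With all UMIs the medians of the 5 filament and basket genes were 0.07 and 0.37, and only Nup88, a partner of Nup214 on the cytoplasmic side, was past 1.5-fold in TripleTg (0.79, against 0.34 in DoubleTg). With thinned cells Nup88 was past 1.5-fold in both, at 0.69 in DoubleTg and 0.64 in TripleTg. Nup98 was at 13.5 CPM in cycling and 14.2 CPM in other cells of DoubleTg (-0.08) and at 23.0 CPM in cycling cells of TripleTg (0.20). The basket genes Nup153 (-0.04 and 0.37) and Nup50 (0.07 and 0.24) also stayed within 1.5-fold. Nup210, a membrane nucleoporin known from muscle and immune cells, was under the limit on level, at 6.03 and 1.68 CPM in DoubleTg (1.84) and at 2.64 and 0.883 CPM in TripleTg (1.58).

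The Ran cycle was past 1.5-fold higher for 4 of 5 genes at level in DoubleTg and 5 of 6 in TripleTg, where 16.5% and 13.7% of all features were. Ran was at 546 CPM in cycling and 306 CPM in other cells of DoubleTg, and at 650 and 288 CPM in TripleTg, with log2 ratios of 0.84 (0.77 to 0.90) and 1.17 (1.14 to 1.20). Ranbp1 was at 268 and 138 CPM and at 427 and 162 CPM, with ratios of 0.96 (0.87 to 1.06) and 1.40 (1.36 to 1.43). Rangap1 gave 0.94 and 1.24 and Rcc1 0.88 and 1.11. Nutf2, which carries Ran-GDP back into the nucleus, was under the limit in DoubleTg (0.46, -0.28 to 1.11) and at 0.98 in TripleTg. Ranbp2, a nucleoporin of the cytoplasmic filaments with SUMO ligase activity, was the exception at 0.12 and 0.07. For Ran, Ranbp1 and Rangap1 the TripleTg interval lay above the DoubleTg one, a difference between libraries that was not tested.

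Medians of the β family were 0.33 in both libraries. In DoubleTg 3 of 10 genes were past 1.5-fold higher and in TripleTg 2 of 10, where 16.5% and 13.7% of all features were. With TMM factors it was 1 of 10 and 2 of 10, where 8.37% and 9.47% of all features were. Ipo9, an importer of histones and actin, led at 1.0 (0.58 to 1.39) and 0.83 (0.60 to 1.05), followed by Kpnb1, the importin β1 that works with the α adaptors, at 0.71 and 0.75, and by Ipo5, an importer of ribosomal proteins and histones, at 0.61 and 0.46. Ipo13, which carries cargo both ways, gave 0.03 and 0.17.

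The importin α adaptors differed among themselves. Kpna2 was at 14.4 CPM in cycling and 8.57 CPM in other cells of DoubleTg and at 18.3 and 6.84 CPM in TripleTg, with ratios of 0.74 (0.31 to 1.15) and 1.42 (1.23 to 1.61). Kpna4, at 108 and 107 CPM in DoubleTg and at 149 and 160 CPM in TripleTg, gave 0.00 and -0.11. Kpna3 was past 1.5-fold in DoubleTg alone (0.62 and 0.25). Kpna6 (0.21 and -0.08) and Kpna1 (0.32 and 0.06) lay within 1.5-fold in both libraries with all UMIs, but with thinned cells Kpna1 was the 1 adaptor past 1.5-fold in DoubleTg (0.60, -0.13 to 1.25, 19 UMIs in cycling cells) and gave -0.31 in TripleTg. With TMM factors 0 of 5 adaptors were past 1.5-fold higher in DoubleTg and 1 of 5, Kpna2, in TripleTg, where 8.37% and 9.47% of all features were. Thinned DoubleTg cells gave 0.44 (-1.20 to 1.67) for Kpna2.

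Within cycling cells, those leaning to mitosis were set against those leaning to S phase by the share of each list with a UMI. In TripleTg 203 cells leaned to mitosis and 153 to S phase, and 1 gene of 47 was past 1.5-fold in each direction, where 3.39% of all features were higher and 2.73% lower. Kpna2 was higher in the mitosis-leaning cells, at 21.6 against 13.4 CPM (0.69, 0.31 to 1.09), and Nup43 lower, at 10.3 against 16.5 CPM (-0.68, -1.11 to -0.26). Xpo1 was at 31.3 CPM in mitosis-leaning and 24.6 CPM in S-leaning cells (0.35, 0.06 to 0.65), and Ranbp1 at 391 and 483 CPM (-0.31, -0.38 to -0.23). In DoubleTg, with 33 and 48 cells, 2 of 47 genes were past 1.5-fold higher and 8 past 1.5-fold lower, where 9.95% and 10.9% of all features were. Of the 8, Nutf2, Nup107, Nup155 and Nup210 passed the limit only through the S-leaning cells, where they were high, and without these 4 it was 2 higher and 4 lower of 43, with no matching share of all features. The values there were 24.9 and 21.0 CPM for Xpo1 (0.24, -0.43 to 0.92) and 0.65 and -0.64 for Kpna2 and Nup43, both with intervals that included 0.

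Other genes of the pathway were read from a separate list of 32 pore and export genes. In DoubleTg 8 of 29 at level were past 1.5-fold higher in cycling cells and in TripleTg 8 of 28, where 16.5% and 13.7% of all features were, and none was past 1.5-fold lower with all UMIs. Thinned cells had 7 of 27 higher and 2 lower in DoubleTg (21.5% and 11.5% of all features) and 6 of 28 higher and 0 lower in TripleTg (14.2% and 7.88%). With all UMIs, of those at 5 CPM or more in both states it was 5 of 25 and 6 of 26, with no matching share of all features. The highest in both, which passed the limit only through the cycling cells, were the membrane nucleoporin Ndc1, at 10.9 and 1.13 CPM in DoubleTg and at 14.1 and 2.04 CPM in TripleTg (3.27 and 2.79), and its partner Aaas (2.5 and 2.52). The lowest were Nmd3, an adaptor of Xpo1 for the large ribosomal subunit, at -0.17 in DoubleTg and Ddx19b, an RNA helicase, at 0.03 in TripleTg. Sp1, a transcription factor that binds GC boxes and is known to regulate Xpo1, gave 0.06 and 0.21, and Myc, a transcription factor of growth genes, -0.32 and 0.06.

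To show the sequences in front of genes that differed by cycling state, the 250 bases before the start site were read from RefSeq (GRCm38.p6) for 41 of the 51 genes, in 49 windows. Xpo1 (ENSMUSG00000020290) spans chr11:23256041-23298249 on the plus strand. Its window chr11:23255791-23256040 is printed with those of Kpna2 (chr11:106999526-106999775, minus strand), Ranbp1 (chr16:18248695-18248944, minus strand) and Nup133 (chr8:123949266-123949515, minus strand), which were higher in cycling cells, and of Kpna4 (chr3:69127093-69127342, minus strand), which was not. All are written 5′ to 3′ in the direction of the gene, and capitals mark a match on either strand. The GC box was searched as GGGCGG, and the CCAAT box by the letters of its name. The cell cycle homology region was searched as TTTGAA. An E2F site was any of TTTCCCGC, TTTCGCGC, TTTGCCGC and TTTGGCGC, and the E-box, which has no match in these 5 windows, was searched as CACGTG. Matches of different motifs did not overlap in them.
Xpo1: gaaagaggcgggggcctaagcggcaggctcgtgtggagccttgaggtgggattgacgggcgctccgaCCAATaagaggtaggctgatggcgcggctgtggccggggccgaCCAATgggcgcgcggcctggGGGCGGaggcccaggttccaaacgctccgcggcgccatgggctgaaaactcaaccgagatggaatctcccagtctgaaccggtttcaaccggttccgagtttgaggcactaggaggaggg
Kpna4: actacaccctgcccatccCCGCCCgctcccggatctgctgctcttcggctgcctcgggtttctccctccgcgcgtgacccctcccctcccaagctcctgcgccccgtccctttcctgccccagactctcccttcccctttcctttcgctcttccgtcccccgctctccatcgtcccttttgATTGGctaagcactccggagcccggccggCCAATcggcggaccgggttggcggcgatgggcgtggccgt
Kpna2: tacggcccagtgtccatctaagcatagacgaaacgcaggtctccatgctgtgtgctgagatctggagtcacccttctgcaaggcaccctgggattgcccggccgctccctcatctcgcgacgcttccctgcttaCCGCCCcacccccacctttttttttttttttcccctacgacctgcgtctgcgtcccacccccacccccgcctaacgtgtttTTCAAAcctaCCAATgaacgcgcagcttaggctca
Ranbp1: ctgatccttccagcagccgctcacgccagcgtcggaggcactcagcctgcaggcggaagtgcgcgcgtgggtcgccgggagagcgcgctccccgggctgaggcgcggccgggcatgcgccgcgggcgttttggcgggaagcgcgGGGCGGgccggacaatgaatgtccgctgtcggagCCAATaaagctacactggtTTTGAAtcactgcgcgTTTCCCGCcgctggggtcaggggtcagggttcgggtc
Nup133: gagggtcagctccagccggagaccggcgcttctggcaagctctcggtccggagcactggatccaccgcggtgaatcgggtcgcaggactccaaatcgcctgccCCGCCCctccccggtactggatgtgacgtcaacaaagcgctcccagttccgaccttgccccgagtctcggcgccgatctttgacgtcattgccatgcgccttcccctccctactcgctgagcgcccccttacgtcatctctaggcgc

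The Xpo1 window holds 2 CCAAT boxes, whose first bases lie 183 and 140 bases before the start, and 1 GC box 120 bases before it. The Kpna4 window holds the same count of each motif at other places, 2 CCAAT boxes at 69 and 40 bases and 1 GC box at 232 bases before the start. Xpo1 had log2 cycling ratios of 1.45 and 1.36 and Kpna4 of 0.00 and -0.11. A link between motifs and cycling ratios was not tested. A cell cycle homology region is present in the windows of Kpna2 and Ranbp1 and absent from those of Xpo1 and Nup133, and an E2F site was found in Ranbp1 alone of these 5. Over the 49 windows of the set the GC box was in 63.3% against 32.7% of all 32851 RefSeq windows of that length, the CCAAT box in 44.9% against 33.8%, the cell cycle homology region in 20.4% against 16%, the E2F site in 4.08% against 1.86% and the E-box in 16.3% against 6.02%. These shares describe letters and say nothing of binding.

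Between the genotypes Xpo1 was higher in TripleTg, and the set as a whole was not. In epithelial-like cells Xpo1 was at 9.09 CPM in DoubleTg and 12.3 CPM in TripleTg, a log2 ratio of 0.44 (0.36 to 0.52), the highest of the exportins and under 1.5-fold. Cycling cells were more frequent in TripleTg (5.91% against 1.24%). Among cells that were not cycling Xpo1 was at 8.86 and 11 CPM, a ratio of 0.31 (0.22 to 0.40), and among cycling cells the intervals of 24.1 and 28.2 CPM overlapped (0.22, -0.12 to 0.58). Thinning to 5000 UMIs gave 0.31 (0.09 to 0.52). Xpo1 was higher in TripleTg within luminal-like cells (8.92 and 13.6 CPM, 0.61, or 0.37 after thinning to 5000 UMIs, under 1.5-fold) and within basal-like cells (11.1 and 15.3 CPM, 0.47) and lower within seminal vesicle-like cells, with an interval that included 0 (5.04 and 3.17 CPM, -0.67, -1.31 to 0.03). Since 1 library stands for each genotype, the genotype cannot be told apart from the mouse, the tissue piece or the library.

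Of the 40 genes at level in the comparison of all epithelial-like cells, 1 was past 1.5-fold higher in TripleTg and 3 past 1.5-fold lower, where 14.3% of all features were higher and 22.8% lower. Both shares of the set, 2.5% and 7.5%, lay below these. The median of the set was -0.06 and that of all features -0.12. With cells thinned to 5000 UMIs 1 of 42 genes was higher and 7 lower (12.9% and 23.9% of all features), and among cycling cells 6 of 47 were higher and 4 lower (12% and 25.9%). The gene above was Kpna3, an importin α adaptor, at 27.3 CPM in DoubleTg and 53.5 CPM in TripleTg (0.97, 0.93 to 1.02), and its close relative Kpna4 followed at 107 and 159 CPM (0.57, 0.55 to 0.59). The genes below were Nup35, which passed the limit only through DoubleTg, at 7.17 and 3.69 CPM (-0.96, -1.09 to -0.83), Ipo13 at 13.2 and 7.27 CPM (-0.86, -0.95 to -0.77) and Tnpo2, a transportin for RNA-binding proteins, at 23.0 and 14.8 CPM (-0.64, -0.70 to -0.58). Without cycling cells these 4 gave 0.96 for Kpna3, -1.04 for Nup35, -0.88 for Ipo13 and -0.66 for Tnpo2. The 11 genes under the limit were Ipo11, Kpna7, Nutf2, Nup107, Nup133, Nup37, Nup93, Nup155, Nup210, Nup210l and Nup62cl.

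The other exportins differed little or in the other direction. Xpot was at 20.1 CPM in DoubleTg and 14.8 CPM in TripleTg (-0.44, -0.51 to -0.37), and Cse1l at 15.8 and 16.9 CPM (0.10, with -0.01 among cells that were not cycling). Xpo7 (-0.01), Xpo5 (-0.06), Xpo4 (-0.08) and Xpo6 (-0.12) lay close to 0. In the Ran cycle Ranbp1 was higher in TripleTg at 140 and 183 CPM (0.38), Rangap1 gave 0.31, Ran 0.03, Ranbp2 -0.08 and Rcc1 -0.50 (15.1 and 10.7 CPM). With thinned cells Rangap1 gave 0.12, the highest of the Ran cycle genes at level, Ranbp1 no more than that, and Rcc1 -0.65. Among nucleoporins Nup98 (0.51), Nup160 (0.50), Nup205 (0.45) and Nup50 (0.33) were highest, and Nup43 (-0.29), Nup54 (-0.21) and Nup88 (-0.15) were lowest after Nup35. Thinned cells gave 0.50 for Nup205, 0.26 for Nup50, no more than that for Nup98, and 0.19 for Nup160. They gave -0.81 for Nup43, -0.40 for Nup54 and -0.29 for Nup88. Among importins Ipo7, which imports ribosomal proteins and histone H1 with Kpnb1, gave 0.30 and Kpna1 0.23, while Kpnb1 (-0.38) and Ipo5 (-0.44) were lower. On the list of other pathway genes 1 of 26 was past 1.5-fold higher, Nupl1 at 0.80, and 3 past 1.5-fold lower, Rae1 at -0.76, Ranbp3 at -0.67 and Sec13 at -0.64. Sp1 gave -0.05 and Myc -0.99 (102 and 51.1 CPM).

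By class the values of the set differed. In luminal-like cells 7 of 40 genes were past 1.5-fold higher in TripleTg and 3 past 1.5-fold lower (all features 19.3% and 21%), with a median of 0.15 beside -0.00109 over all features. In basal-like cells 1 of 44 was past 1.5-fold higher and 19 past 1.5-fold lower (21.4% and 23.9% of all features), with a median of -0.47 beside -0.06. Of the 19, Xpo5, Nup107, Nup43 and Nup85 passed the limit only through DoubleTg, where they were high, and without these 4 it was 15 lower of 40 with a median of -0.41. The shares of all features in both classes are for the limit on the mean. None was counted for genes at 5 CPM or more in both libraries. In luminal-like cells Nup160, Nup85, Nup205 and Nup35 passed through 1 library, and without them 5 of 36 were higher and 2 lower. These luminal-like values moved with 2 TripleTg clusters, described below, whose luminal-like name is weak. Without those clusters 11 of 41 genes were past 1.5-fold higher and 3 past 1.5-fold lower (19.4% and 19.9% of all features), with a median of 0.25 beside 0.02, and of the 36 at 5 CPM or more in both libraries 8 were higher and 2 lower. Of the 40 genes at level in both classes 21 had the same sign in both, 18 were higher in luminal-like and lower in basal-like cells of TripleTg and 1 the other way round, and for 15 of the 19 of opposite sign both intervals left out 0. These counts of signs were not made over all features, so they describe the set and do not set it apart. After thinning to 5000 UMIs the basal-like counts were 2 higher and 18 lower of 44 (22.4% and 24.5% of all features) and the luminal-like ones 5 and 3 of 40 (16.8% and 23%), and both intervals left out 0 for 5 genes of opposite sign, Ipo7, Tnpo1, Ran, Rangap1 and Ranbp1. The basal-like median depth was 12709 UMIs in DoubleTg and 21626 in TripleTg.

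Ranbp1 was past 1.5-fold in opposite directions, at 115 CPM in DoubleTg and 193 CPM in TripleTg luminal-like cells (0.75, 0.72 to 0.77) and at 325 and 193 CPM in basal-like cells (-0.75, -0.81 to -0.70). Ran went from 249 to 333 CPM in luminal-like cells (0.42) and from 763 to 361 CPM in basal-like cells (-1.08, -1.12 to -1.04). Nup160 gave 0.81 and -0.40, Rangap1 0.56 and -0.56, and Ipo7 0.56 and -0.37. Xpo1 (0.61 and 0.47), Kpna3 (1.21 and 0.46) and Kpna4 (0.73 and 0.73) were higher in TripleTg in both classes, and Nup35 (-1.01 and -0.92) and Ipo13 (-0.78 and -0.50) lower in both. The class names come from clusters rebuilt here in each library, so that a class may not hold the same cells in both.

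**Figure D3:**
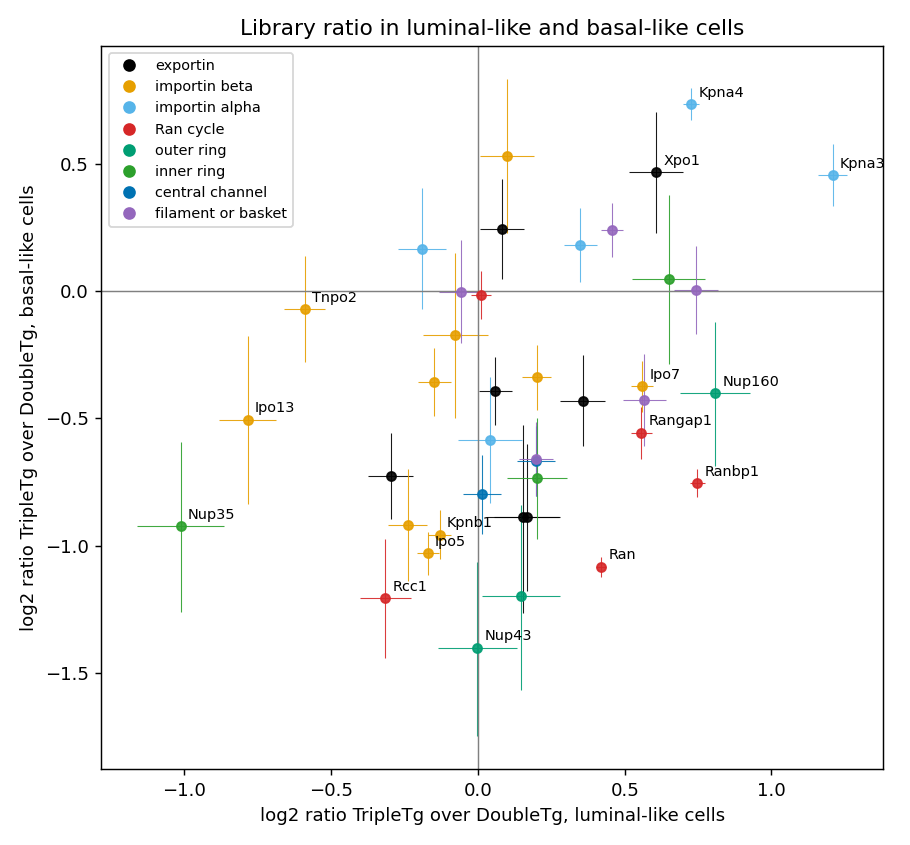
Log2 ratio of TripleTg over DoubleTg for each gene at level in both classes, in luminal-like cells (horizontal axis) and basal-like cells (vertical axis), with 95% counting intervals and colours by role. Xpo1, Kpna3 and Kpna4 lie in the upper right, and Ran and Ranbp1 in the lower right, at 0.42 and -1.08 and at 0.75 and -0.75.

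Of the 4 groups of cells compared, DoubleTg basal-like cells had the highest level of the set. There the summed level of the 51 genes was 2605 CPM, against 1354 CPM in DoubleTg luminal-like cells, 1815 CPM in TripleTg basal-like cells and 1713 CPM in TripleTg luminal-like cells. The DoubleTg basal-like sum was above that of the cycling epithelial cells of the same library, 2271 CPM, although 0.976% of the basal-like cells were cycling. Ran (763 CPM) and Ranbp1 (325 CPM) were the largest parts of the basal-like sum. The median gene of the set ran the other way, at 17.6 CPM in the basal-like and 20.1 CPM in the cycling cells. In DoubleTg 26 of 43 genes were past 1.5-fold higher in basal-like than in luminal-like cells, where 31.2% of all features were, and 2 past 1.5-fold lower (27.5% of all features), with a median of 0.73 beside 0.12. In TripleTg 1 of 39 was, where 15.6% of all features were, and 2 were past 1.5-fold lower (15.8% of all features), with a median of 0.10 beside -0.009. Counting only genes at 5 CPM or more in both classes it was 21 of 37 in DoubleTg and 0 of 37 in TripleTg, and no share of all features was counted under that rule. The one in TripleTg was Nup93, an inner ring scaffold protein that passed the limit only through basal-like cells in both libraries, at 9.14 CPM in basal-like and 4.71 CPM in luminal-like cells (0.96), and in DoubleTg Nup93 had the highest ratio too among the genes over the limit, at 13.9 and 3.84 CPM (1.85). Ran followed in DoubleTg (1.61), while Xpo1 was close to even, at 11.1 and 8.92 CPM in DoubleTg (0.31, 0.13 to 0.49) and at 15.3 and 13.6 CPM in TripleTg (0.17, -0.01 to 0.34). The 4 class and library groups share their cells between these ratios and the genotype ratios above, so the values are set side by side and are not separate evidence.

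Luminal-like cells with and without a UMI of hMETtg were compared within each library. With all UMIs no gene of the set was past 1.5-fold in either direction in DoubleTg (37 genes at level, 6.15% of all features higher and 2.53% lower) or in TripleTg (40 genes, 1.68% and 0.793%). With cells thinned to 5000 UMIs 2 of 39 genes, Xpo7 (0.82) and Nup98 (0.74), were past 1.5-fold higher in DoubleTg and 1, Nup85 (-0.63), past 1.5-fold lower, where 7.04% and 3.37% of all features were. Thinned TripleTg cells had 0 of 39 in either direction (1.9% and 1.14%). In DoubleTg Xpo1 was at 9.23 CPM in hMETtg-positive and 6.80 CPM in hMETtg-negative cells (0.44, 0.21 to 0.68), but after thinning to 5000 UMIs at 9.69 and 8.91 CPM (0.12, -0.43 to 0.72). In TripleTg Xpo1 was at 13.3 and 13.8 CPM (-0.05, -0.18 to 0.07). The split rests on detection of hMETtg, whose level was lower in TripleTg, as given above. Cells without a UMI may therefore still express it, and TripleTg positive cells may hold background RNA. Cells were split on all their UMIs in the thinned comparison too. A lack of difference here thus does not show that MET and the set are unrelated.

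The epithelial-like clusters made up mostly of cycling cells had high Xpo1, at 21.5 CPM in the DoubleTg luminal-like cluster with 72.2% cycling cells, 27.6 CPM in the TripleTg luminal-like cluster with 81.2% and 41.7 CPM in a TripleTg basal-like cluster of 25 cells with 92%. Clusters with few cycling cells ranged widely, from 1.35 CPM in a TripleTg seminal vesicle-like cluster (0.901% cycling) to 23.7 CPM (20.5 to 27.3) in a TripleTg luminal-like cluster of 312 cells (0.341% cycling). The leading genes of the latter were Mt4, Igfbp2, Jakmip2, Krtap13-1, Svopl, Gprc5d, Krtdap, Ptn, Sprr1b and Npy, several of them genes of hair or cornified epithelium, so the name luminal-like is weak for it. The same holds for a TripleTg cluster of 443 cells led by Krt73, Tchh, Lce3f, Cnfn, Fabp4, Rptn, Calm4, S100a7a, Crym and Crct1, in which Xpo1 was at 8.03 CPM (0.469% cycling). None of the 21 luminal-like clusters had any of the 10 luminal markers among its top 10 genes by fold.

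The cluster was chosen here for its Xpo1 level, which is therefore a description. Within it, cells that were not cycling had 23.8 CPM of Xpo1 against 11.5 CPM in the other such luminal-like cells of TripleTg (1.05, and 1.19 after thinning). Xpot was the only exportin further apart, at 32.8 and 13.3 CPM (1.30), and Cse1l was lowest (-0.27). The median of the set was -0.26 beside -0.11 over all features, and after thinning -0.05 beside -0.05. Unthinned, Ran gave 0.08, Kpna2 -0.09, Ranbp1 -0.26, Nup160 -0.44 and Rangap1 -0.83. Of 39 genes at level 3 were past 1.5-fold higher and 4 past 1.5-fold lower, where 16.2% and 22.8% of all features were. With thinned cells it was 7 and 8 of 39, where 19.9% and 23.2% of all features were, and Xpo4 (-0.06) was the lowest exportin in place of Cse1l (0.14). Without this cluster the ratio of Xpo1 between the genotypes was 0.38 (0.30 to 0.47) over all epithelial-like cells and 0.40 (0.30 to 0.51) over luminal-like cells that were not cycling. Without it and the cluster led by Krt73 the ratio was 0.42 (0.34 to 0.51) over epithelial-like and 0.61 (0.51 to 0.71) over all luminal-like cells.

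**Figure D4:**
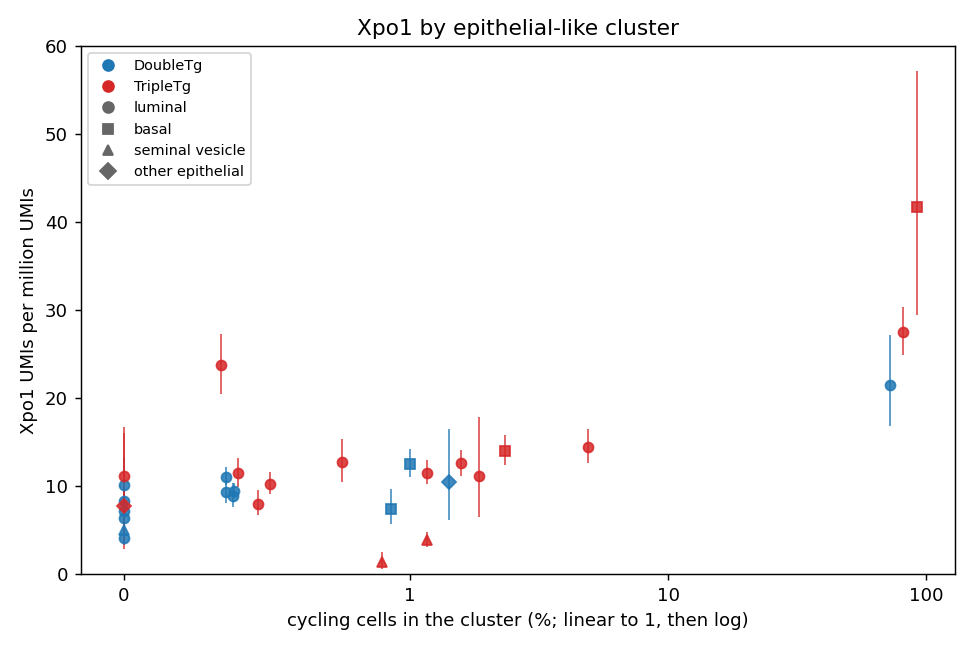
Xpo1 level (CPM, with 95% Poisson intervals) against the share of cycling cells for each epithelial-like cluster of DoubleTg (blue) and TripleTg (red). The clusters at the right, with 72.2% or more cycling cells, lie at 21.5 CPM and above, and 1 TripleTg cluster at 0.341% cycling cells lies at 23.7 CPM.

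Across classes Xpo1 had the widest relative range of the exportins, 3.17 to 28.1 CPM, and 4 other genes of the set, chosen after their values were seen, were uneven as well. Ipo11, an importer of ubiquitin-conjugating enzymes, was at 43.2 CPM in DoubleTg and 76.1 CPM in TripleTg endothelial-like cells against a median of 4.11 CPM over the 19 points. A UMI of Ipo11 was found in 19.9% and 40.5% of these cells, at median depths of 6135 and 6979.5 UMIs, and in 3.88% of T and NK-like cells of DoubleTg at a median of 6512.5 UMIs, so the endothelial signal lay above what a class of like depth showed.

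Nup62cl, a relative of Nup62, was at 30.0 CPM in TripleTg smooth muscle-like cells, from 36 UMIs in 18 of 98 cells, and had 0 UMIs in the 65 DoubleTg cells of that class. Against the floor of 3 UMIs per library, 3.95 CPM, the TripleTg level was 7.59-fold higher. The counting interval of the 0 DoubleTg UMIs reached 4.86 CPM, above this floor, so the fold is not a lower limit. In TripleTg endothelial-like cells 0.413% of cells had a UMI of Nup62cl at a like depth. Nup210 was highest in dendritic-like and T and NK-like cells of DoubleTg, at 13.5 and 10.1 CPM, and in the same library at 3.10 CPM in seminal vesicle-like, 1.92 CPM in luminal-like, 1.86 CPM in macrophage-like and 0.264 CPM in basal-like cells. Kpna1 was at 166 CPM in DoubleTg smooth muscle-like cells, from 126 UMIs in 39 of 65 cells with at most 16 in 1 cell, and at 58.3 CPM in those of TripleTg.

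**Figure D5:**
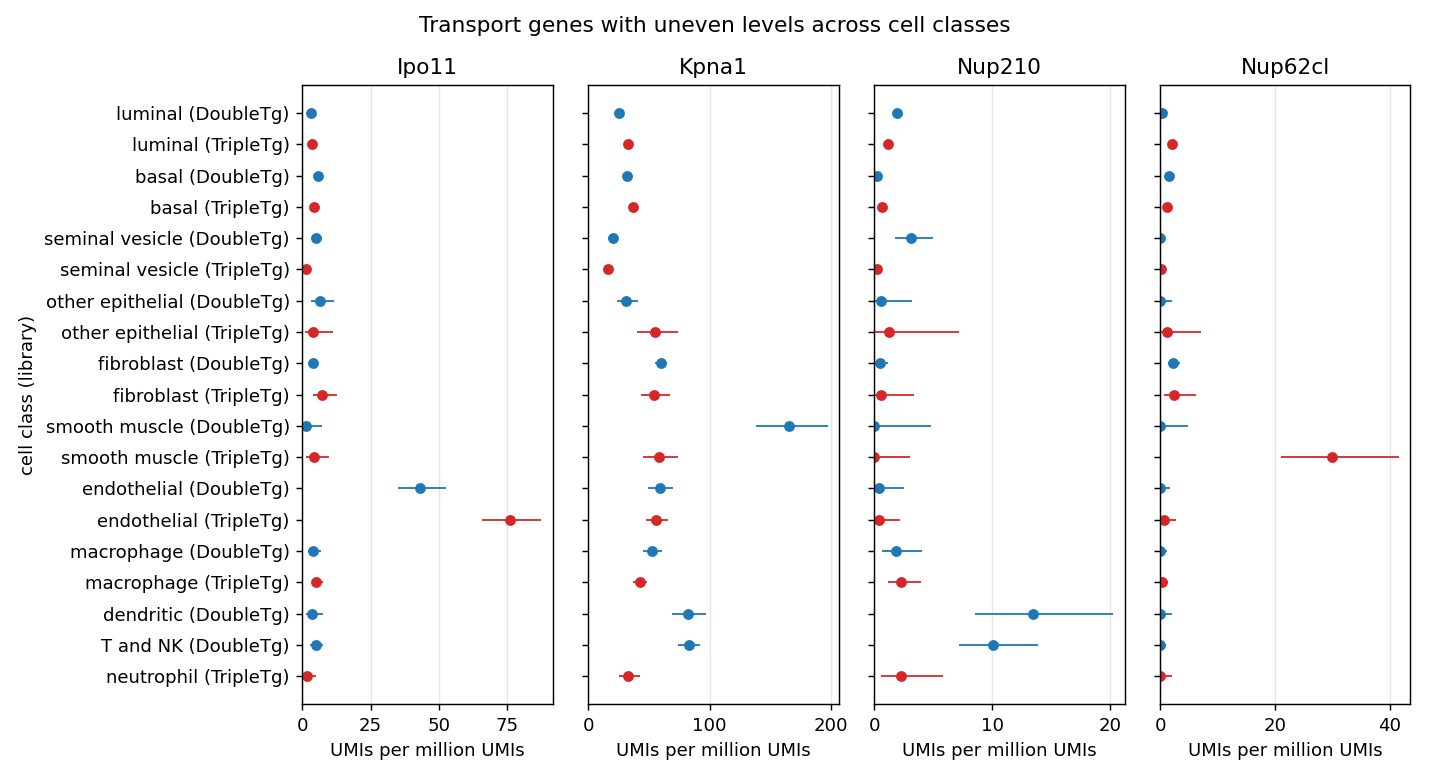
Levels of Ipo11, Kpna1, Nup210 and Nup62cl (CPM, 95% Poisson intervals) at the 19 class and library points, DoubleTg in blue and TripleTg in red. Ipo11 is high in the endothelial-like cells of both libraries, at 43.2 and 76.1 CPM, whereas the high values of Kpna1 (166 CPM) and Nup62cl (30.0 CPM) are each in the smooth muscle-like cells of 1 library.

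The genes whose levels most resembled those of Xpo1 over the 19 points were Ipo8, with a Pearson correlation of 0.68 on the log2(CPM + 1) scale, Nup93 (0.67), Nup155 (0.60), Nup50 (0.55) and Nup205 (0.53). These points come from 2 libraries, and classes of a library share its depth and its free RNA, so the correlations are given as a description. Only genes of the set with a mean of at least 5 CPM over the 19 points were compared, and among these Nup43 was least like Xpo1 (-0.09). The cycling ratios of the 5 resembling genes ran from 0.07 for Nup50 to 1.25 for Nup205 in DoubleTg.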

How the data were processed

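Single-cell libraries (10x Genomics, 3′ chemistry) of DoubleTg and TripleTg prostate tumour tissue were analysed, 1 per genotype. The authors deposited raw UMI counts, 1 matrix per library, which they made with Cell Ranger on the mouse genome (mm10) with the transgene sequences added. The submitters' processing notes name Cell Ranger 6.0.2 and the header of the DoubleTg matrix 6.1.1. The study's limits (over 200 and under 7000 genes, under 15% mitochondrial UMIs) were applied to both, and the TripleTg matrix already met them. In DoubleTg they left out 421 cells with many genes, of which 41 (9.74%) were cycling by the rule used here.

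Each library was clustered with scanpy 1.11.5 (2000 variable genes, 20 components, 15 neighbours, Leiden resolution 1). Clusters were named from marker lists, of which Trac had no feature, with thresholds set after the clusters were seen. Shallow or mixed clusters stayed unnamed (1388 DoubleTg, 1735 TripleTg cells), and doublets were left in: scrublet marked 2.55% of DoubleTg and 0% of TripleTg cells. It therefore gave no alternative for TripleTg, and why it marked no cell there was not examined. Fibroblast-like cells were not compared between genotypes, since 1 DoubleTg cluster had a smooth muscle marker among its top genes.

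UMIs were summed per cell group and scaled to 1000000 (CPM). Intervals are exact Poisson for levels, exact binomial (Clopper-Pearson) for shares and conditional binomial for log2 ratios. UMIs remove copies of a molecule, and the intervals cover counting error only. A feature entered a ratio's list with a mean of at least 5 CPM over both cell groups, and past 1.5-fold took the place of a call. Shares of all features were counted under this limit alone. They were not counted for features at 5 CPM or more in both cell groups, or with no limit on level. Cells under 5000 UMIs have no cycling state. Near the cycling limit, 255 DoubleTg and 288 TripleTg epithelial-like cells had 2 of the 15 genes and 36 and 120 had 3. The genes always named were the exportins and the Ran cycle, then the 4 highest and 4 lowest importins and nucleoporins of the cycling and genotype comparisons and the 5 genes most like Xpo1. Genes named for uneven class levels or in the high-Xpo1 cluster were chosen after their values were seen. The members and gene lists were chosen with earlier results of these data known. TMM factors came from edgeR 4.0.16. The ratio step was tested on simulated data. Reads that fall in overlapping genes cannot be assigned with certainty for Nup62 and Il4i1, Rcc1 and Snhg3, Nup35 and Dusp19, Xpo7 and Npm2, or Xpo4, Ipo4, Kpna7, Ranbp1 and Nup188 and gene models known by number, and Kpna2, Ranbp2 and Nutf2 have named pseudogenes. Gene spans are from GENCODE M21 (GRCm38).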

Additional observations from a re-analysis of the deposited data

Results flagged for a closer look

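The median genotype ratio of the set had opposite signs in the epithelial classes, and the difference was not tested because each genotype has 1 library. The median log2 ratio of TripleTg over DoubleTg was 0.15 in luminal-like cells and -0.47 in basal-like cells. Of 40 genes 21 had the same sign in both, a count that was not made over all features. After thinning to 5000 UMIs the medians were 0.04 and -0.46, with 22 of 40 genes of the same sign. Ranbp1 was past 1.5-fold in both, with 0.75 in luminal-like cells and -0.75 in basal-like cells.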

How the results depend on the processing

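No paired analysis was possible because each genotype has 1 library and the labels give no replicate numbers. Xpo1 was higher in cycling cells under each alternative run, at 1.93 in DoubleTg with cells thinned to 5000 UMIs, 1.84 with cycling set at 5 of 15 genes and 1.18 in TripleTg luminal-like cells. The median of the set in TripleTg was 0.79 with cycling at 5 of 15 genes, and the DoubleTg count past 1.5-fold was 14 with TMM factors, which took the median from 0.62 to 0.36 (TripleTg 0.45). Over the alternatives that count ran from 14 to 27 in DoubleTg and from 20 to 26 in TripleTg.

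Between genotypes Xpo1 gave 0.31 thinned, 0.61 in luminal-like, 0.32 in hMETtg-positive, 0.31 in non-cycling and 0.22 in cycling cells. The median of the set was -0.24 thinned and turned positive in luminal-like cells (0.15), in cycling cells (0.00016) and, chosen after seeing the data, in non-cycling luminal-like cells (0.13). The count past 1.5-fold, 4 over all epithelial-like cells, was 8 thinned, 10 in luminal-like and 10 in cycling cells. Leaving out the TripleTg cluster of highest Xpo1, also chosen after seeing the data, gave 0.38 for Xpo1 and left the count at 4, and without the cluster led by Krt73 as well these were 0.42 and 5, with a median of -0.02. In all, 43 of the alternative values moved by less than a set width, 15 by more, and 3 changed direction. For counts the width was 1.5 times, for Xpo1 the reach of its counting interval to either side, and for medians the median of that reach over the genes, which was 0.32 for DoubleTg cycling, 0.17 for TripleTg cycling and 0.07 between genotypes. The causes were not tested. Thinning left Xpo1 first among exportins at 0 class points in place of 1. Removing doublets was not run for TripleTg or between genotypes because scrublet marked no TripleTg cell. Counts of cells limit the cycling comparisons: 83 DoubleTg epithelial-like cells with 84 UMIs of Xpo1, 17 basal-like with 10 and 16 non-epithelial with 8. Thinned luminal-like cells gave 0.37 for Xpo1 between genotypes.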
